A study of Mus musculus with 4 samples.

Results

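The genes Zfpm2, Adarb2, Col25a1 and Pou3f1, which were lower in the hair follicle cells of TKO (triple knockout) than of Ctrl mouse skin, are described here in each library, cell group and hair follicle subgroup. They were chosen by symbol, 4 of 56980 genes in the files, because earlier results of these data had shown them lowered in hair follicle-like cells. Their TKO and Ctrl levels are therefore a description and carry no test. The question addressed was whether a subgroup of cells was smaller in TKO or whether the genes were lower within the cells of a subgroup.

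Single-cell RNA-seq was made from dorsal skin cells of E16.5 mouse embryos per the labels, sorted for Epcam, an epithelial surface protein, and α6 integrin, which marks cells on the basement membrane. The study's litter list gives another embryonic day for the single-cell litter. Both groups carried floxed Suv39h1, floxed Setdb1 and a constitutive deletion of Suv39h2, and both received tamoxifen. The 2 Ctrl libraries had no Cre and the 2 TKO libraries had K14CreERT2, a tamoxifen-dependent Cre driven by a basal keratinocyte promoter. Ctrl mice thus also lacked Suv39h2, and the study's list describes the recombination in this litter as mosaic. The 3 targeted genes encode enzymes that write H3K9me3, a histone mark of silent chromatin. Each library was 1 embryo and was counted as 1 sample.

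The libraries held 70749496 to 89655247 UMIs (unique molecular identifiers, each 1 captured RNA molecule) in 3804 to 5785 barcodes. After filtering, 9196 keratinocytes remained, of which 2163 were hair follicle-like, with 611 and 799 cells in Ctrl replicates 1 and 2 and 320 and 433 cells in TKO replicates 1 and 2. All 11 hair follicle markers were detected in the hair follicle-like cells of every library, and their summed level was 1833 to 2159 CPM (the UMIs of a gene divided by the total UMIs of the same cells and scaled to a common total). Setdb1 was at 75.1 and 60.9 CPM in the hair follicle-like cells of the Ctrl libraries and at 40.9 and 43.3 in TKO (edgeR adjusted p = 0.0267). The other targeted genes were not called, with adjusted p = 0.353 for Suv39h1 and 0.153 for Suv39h2 in the same edgeR test. A 3′ tag outside a deleted exon does not check the deletion.

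A hair follicle begins as a placode, a thickening of the basal layer, which grows down as a hair germ and then as a longer hair peg. Wnt and Eda signals mark the placode, Shh marks the germ, and Sox9, Lrig1 and Krt79 mark cells of the peg and of the upper follicle. Zfpm2 encodes FOG2, a zinc finger cofactor of GATA factors known from heart and gonad. Adarb2 encodes ADAR3, a brain-enriched relative of the adenosine deaminases that edit RNA, for which no editing activity is known. Col25a1 encodes a transmembrane collagen of neurons. Pou3f1 encodes OCT6, a POU-domain transcription factor known from myelinating Schwann cells and from suprabasal epidermis.

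All 4 genes lie on the plus strand (positions on GRCm39, GENCODE vM39). Zfpm2 (ENSMUSG00000022306) spans chromosome 15, 40518278 to 40970261, and Adarb2 (ENSMUSG00000052551) spans chromosome 13, 8252897 to 8818800. Col25a1 (ENSMUSG00000058897) spans chromosome 3, 129925150 to 130393532, and Pou3f1 (ENSMUSG00000090125) spans chromosome 4, 124550600 to 124554448. The first 3 are long genes of 452, 566 and 468 kb, whereas Pou3f1 covers 3.85 kb. Annotated genes on the same strand overlap them at 3 places in Zfpm2, 3 in Adarb2 and 5 in Col25a1, none over an exon of the gene itself. No same-strand gene overlaps Pou3f1. On the opposite strand, the lncRNA genes Gm63080 and Gm2164 overlap an exon of Zfpm2 and of Pou3f1. Whether counting used strand was not stated in the sources used here, so reads of such pairs may not be told apart. Whether intronic reads were counted was not stated, so reads from such overlapping genes cannot be told apart from intronic reads of the 3 long genes.

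The RefSeq promoter table (build GRCm38.p6) had an entry for 2 of the 4 genes, and the 250 bases before each start are shown because Adarb2 and Col25a1 had a like cell pattern in Ctrl, described further on, and because Pou3f1 encodes a POU factor and Zfpm2 a GATA cofactor. Capitals mark the octamer, the classical POU-factor motif ATGCAAAT, searched on both strands. The windows are chr13:8202616-8202865 for Adarb2 and chr3:130180595-130180844 for Col25a1, both plus strand and written 5′ to 3′.
Adarb2: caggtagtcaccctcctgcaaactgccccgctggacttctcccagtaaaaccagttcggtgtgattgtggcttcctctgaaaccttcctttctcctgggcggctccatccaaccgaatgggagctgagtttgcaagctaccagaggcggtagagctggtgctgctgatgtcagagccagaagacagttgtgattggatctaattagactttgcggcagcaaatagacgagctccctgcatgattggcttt
Col25a1: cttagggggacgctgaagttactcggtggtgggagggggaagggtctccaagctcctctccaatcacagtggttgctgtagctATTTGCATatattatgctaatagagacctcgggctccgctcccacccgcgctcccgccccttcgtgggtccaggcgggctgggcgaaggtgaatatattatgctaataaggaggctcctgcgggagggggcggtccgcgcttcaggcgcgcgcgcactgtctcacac
The Col25a1 window held 1 octamer, on the minus strand, 167 to 160 bases before the start, and the Adarb2 window held none. Of the 32851 windows in the table, 1.60% held an octamer. The GATA motif AGATAA was in neither window and in 9.99% of all windows. The motif CCAAT was found on either strand 2 times in Adarb2 and 1 time in Col25a1, and in 33.8% of all windows. These are matches of letters and not measured binding sites.

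In hair follicle-like cells, Zfpm2 stood at 164 and 176 CPM in Ctrl replicates 1 and 2 and at 8.74 and 10.9 in TKO replicates 1 and 2. The UMIs behind these values were 2429 and 2622 against 94 and 136. Adarb2 stood at 31.6 and 20.8 CPM in Ctrl and at 1.49 and 0.722 in TKO, from 467 and 310 against 16 and 9 UMIs. Both TKO libraries lay far below both Ctrl libraries for these genes, and the group means were 17.3-fold lower for Zfpm2 and 23.7-fold lower for Adarb2.

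Col25a1 was at 53.1 and 20.7 CPM in the Ctrl libraries and at 4.09 and 2.17 in the TKO libraries. Its Ctrl libraries differed from each other more than those of the other 3 genes, and the group means differed 11.8-fold. Pou3f1 was at 118 in each Ctrl library and at 25.4 and 23.0 in the TKO libraries, a 4.88-fold lower mean. For all 4 genes the groups did not overlap, which the choice of the genes fixes. As background, 14.1% of 16008 genes tested were called in hair follicle-like cells (edgeR's quasi-likelihood test, p adjusted by Benjamini-Hochberg, threshold 0.05), 7.96% raised and 6.12% lowered. Over 10 alternatives, libraries left out among them, the log2 ratio of means lay between -4.62 and -3.73 for Zfpm2, -5.47 and -4.14 for Adarb2, -4.61 and -2.73 for Col25a1, and -2.90 and -2.22 for Pou3f1.

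Fewer cells carried each of the 4 genes in TKO. TKO cells held more UMIs, with a median of 27977 and 24750 UMIs per hair follicle-like cell against 19763 and 15484 in Ctrl, so each cell was thinned to 5000 UMIs. At that depth a UMI of Zfpm2 was found in 19.6% and 19.8% of Ctrl cells (exact 95% binomial intervals 16.55 to 23.0% and 17.0 to 22.7%) and in 3.75% and 3.49% of TKO cells (1.95 to 6.46% and 1.97 to 5.69%). Cells with fewer UMIs were not used, which were 5 and 15 cells of Ctrl and 0 and 3 of TKO. Intervals cover counting error only. Without thinning, the shares for Zfpm2 were 26.0% and 25.4% in Ctrl and 9.38% and 5.77% in TKO.

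Adarb2 was a rarer transcript, found at 5000 UMIs in 4.62% and 3.70% of Ctrl hair follicle-like cells, in 0 of 320 cells of TKO replicate 1, which allows up to 0.938% at this depth, and in 0.698% of cells of TKO replicate 2. Without thinning, the shares for Adarb2 were 5.89% and 5.63% in Ctrl and 2.19% and 1.15% in TKO. Col25a1 was found in 9.24% and 4.72% of Ctrl cells and in 1.25% and 1.16% of TKO cells. Pou3f1 was found in 21.5% and 23.0% of Ctrl cells and in 11.3% and 6.51% of TKO cells. At full depth a cell with any Zfpm2 held on average 15.3 and 12.9 of its UMIs in Ctrl and 3.13 and 5.44 in TKO. For Pou3f1 the averages per carrying cell were 9.40 and 6.54 in Ctrl and 3.59 and 3.45 in TKO, even though TKO cells held more UMIs. For Adarb2 they were 12.97 and 6.89 in Ctrl and 2.29 and 1.80 in TKO. For Col25a1 the groups overlapped, since TKO replicate 1 (4) was above Ctrl replicate 2 (3.72), while Ctrl replicate 1 had 9.57 and TKO replicate 2 had 2.25.

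Immune-like cells were taken as the reference for background. Whether their UMIs came from free RNA, leftover doublets or own expression was not tested. In them 0 to 1.22% of thinned cells of a library carried Zfpm2, 0 to 0.407% Adarb2, 0 to 0.361% Col25a1 and 0 to 4.69% Pou3f1. Their median depth was 13390 to 18340 UMIs per cell. The highest Pou3f1 value was 3 of 64 cells. Within each TKO library, the exact 95% intervals of the hair follicle-like and the immune-like share overlapped for Adarb2 and Col25a1 in both libraries and for Zfpm2 in replicate 1 (immune-like 0.252 to 3.52%), and did not overlap for Pou3f1. Where they overlapped, the shares at this depth did not separate TKO hair follicle-like cells from background, though overlap of intervals is not a test. At full depth, where hair follicle-like cells held more UMIs, the intervals of TKO replicate 1 did not overlap for 2 genes. These were Zfpm2 (6.41 to 13.1% against 0.660 to 4.66%) and Col25a1 (1.73 to 6.07% against 0 to 1.48%). They still overlapped for Adarb2 in both TKO libraries and for Col25a1 in TKO replicate 2.

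**Figure D1:**
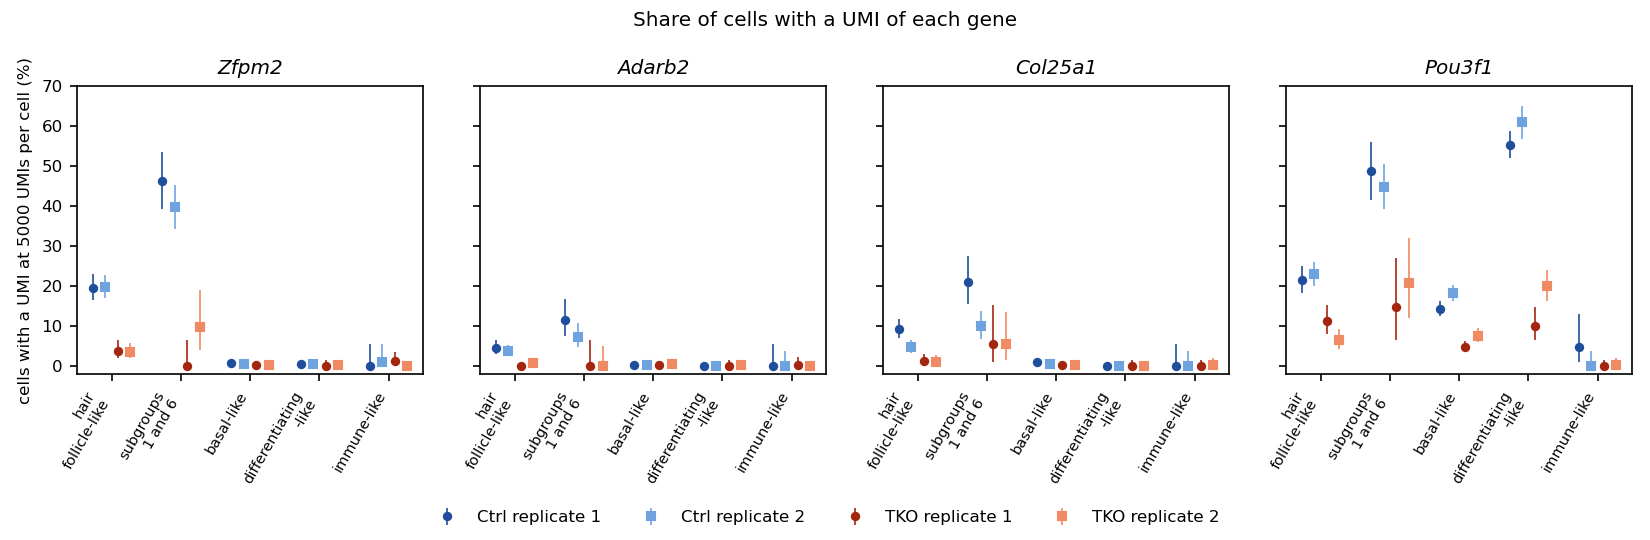
Share of cells with at least 1 UMI of each gene after thinning to 5000 UMIs per cell (y axis, percent) by cell group (x axis), 1 point per library with its exact 95% binomial interval. Zfpm2 is carried by 46.2% and 39.7% of cells in subgroups 1 and 6 of the follicle-like cells in Ctrl and by 0% and 9.72% in TKO.

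The hair follicle-like cells were then split into 7 subgroups, clustered without the 4 genes and without 2717 genes that differed between the genotypes. Subgroups were scored against placode, germ and peg markers. Subgroup 1 (457 cells) was led in Ctrl by Tafa1, Krt79, Plcl1, Ramp1 and Sema3e, had the highest peg score of all subgroups and was peg-like. Subgroup 6 (186 cells) was led by Cstdc5, Lrrc7, Stfa1, Igfbp3 and Gm2164. Its peg score was the highest of its 3 scores, with all 6 peg markers detected, but its other values went against that name. None of the markers was among its 10 leading genes, and their sum (1873 and 2351 CPM in Ctrl) was close to that of germ-like subgroup 3 (1872 and 2271) and below that of subgroup 1 (3866 and 3781). Its basal markers stood at 17612 and 19654 CPM in Ctrl, as in basal-like cells (17241 and 19722), against 2548 to 7852 in the other subgroups. Subgroup 6 is therefore left unnamed, and values of subgroups 1 and 6 together are given beside those of subgroup 1 alone. Stfa1 encodes a stefin, a protease inhibitor of differentiating keratinocytes.

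Subgroup 5 (282 cells) was led by Chrm3, Thsd4, Shh, Slc40a1 and Cyfip2 and was germ-like by its highest score. Its placode score was also the highest of the 7 subgroups, Sp5, a placode marker, was among its 10 leading genes, and its placode markers summed to 1291 and 997 CPM in Ctrl, against 732 to 974 in the placode-like subgroups. Germ and placode cells are thus not separated by this name. Subgroup 2 (449 cells), led by Kcnh7, Igfbp2, Serpinb10, Slc1a3 and Postn, was placode-like. Subgroups 3 (337 cells, germ-like, led by Ube2c, Hmmr, Spc25, Cenpf and H1f1) and 4 (316 cells, placode-like, led by Mt2, Mybpc1, Arl6ip1, Cenpf and Ube2c) were led by cell division genes. Subgroup 7 (136 cells, placode-like) was led by Cxcl10, Cxcl1, Csf1, Gm20186 and Lmo7, among them chemokine genes of a stress or immune response.

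The peg-like subgroup 1 and the unnamed subgroup 6 made up a smaller share of the TKO hair follicle-like cells. Subgroup 1 held 22.3% and 28.2% of the Ctrl hair follicle-like cells and 11.9% and 13.4% of the TKO cells, and subgroup 6 held 10.5% and 11.5% against 5.00% and 3.23%. The mean of subgroup 1 was 25.2% ± 4.17 in Ctrl and 12.6% ± 1.07 in TKO (mean ± SD, n = 2 each, exact permutation p = 0.3333, two-sided). Together the subgroups held 36.2% ± 4.91 and 16.8% ± 0.175 (SD, n = 2 each, exact permutation p = 0.3333). The p of 0.3333 is the smallest that 2 libraries against 2 can give. In cells, this was 200 and 317 Ctrl cells against 54 and 72 TKO cells.

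The cycling placode-like subgroup 4 went the other way, with 12.4% and 7.88% of Ctrl and 28.4% and 19.9% of TKO hair follicle-like cells (exact permutation p = 0.3333, n = 2 each). Subgroups 2, 3, 5 and 7 differed by 0.205 to 2.54 percentage points between the group means. The hair follicle-like share of all keratinocytes was 24.1% ± 3.71 in Ctrl and 22.3% ± 2.66 in TKO (exact permutation p = 0.6667, n = 2 each). Subgroups 1 and 6 were 8.81% ± 2.53 of Ctrl and 3.73% ± 0.407 of TKO keratinocytes, and subgroup 1 alone was 6.15% ± 1.94 and 2.83% ± 0.576 (SD, n = 2 each).

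**Figure D2:**
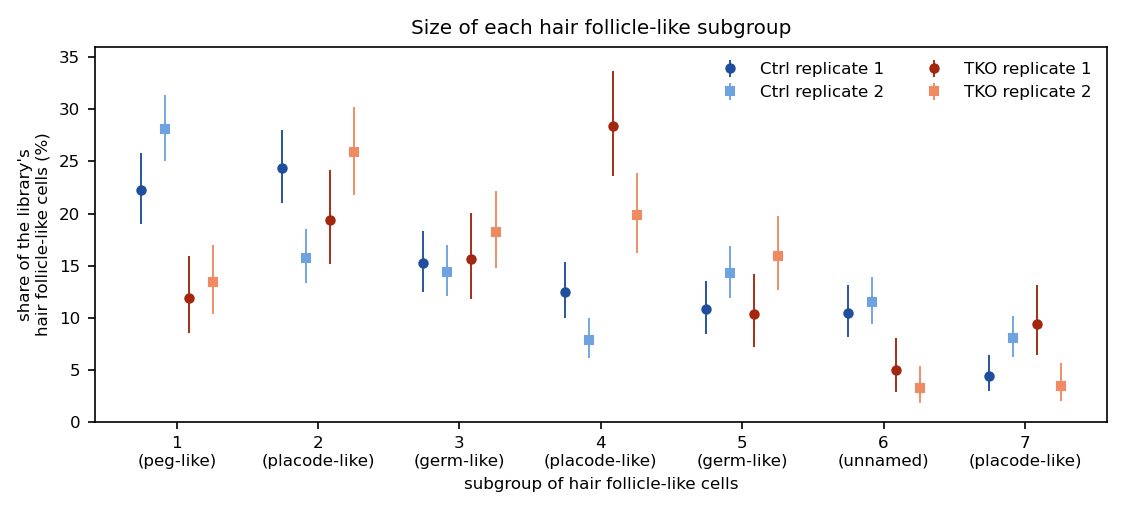
Share of each library's hair follicle-like cells (y axis, percent) in the 7 subgroups (x axis), 1 point per library with its exact 95% binomial interval. Subgroup 1, which is peg-like, and the unnamed subgroup 6 are smaller in both TKO libraries, and subgroup 4 is larger.

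Among the subgroups of Ctrl, each of the first 3 genes had its highest mean level in subgroup 1 or 6. Zfpm2 was at 534 and 432 CPM in subgroup 1 of Ctrl replicates 1 and 2 and at 378 and 207 in subgroup 6. It was lower in the cycling germ-like subgroup 3, at 74.8 and 159, and at 22.9 and 29.2 in the Shh subgroup 5. In placode-like subgroups 2, 4 and 7 it was between 0 and 22.9. The order of subgroups 1 and 6 over subgroup 3 held in both libraries, and the levels of subgroups 4 and 5 overlapped.

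Adarb2 was at 172 and 42.8 CPM in subgroup 6 of the Ctrl libraries, at 54.4 and 52.0 in subgroup 1 and at 31.0 and 12.3 in subgroup 3. Subgroups 1 and 6 could not be ordered, since their libraries overlapped. In the 4 other subgroups of Ctrl, Adarb2 was at 0 in every library except Ctrl replicate 2 of subgroup 5, with 1 UMI. Col25a1 was highest in subgroup 6, at 358 and 94.1, and stood at 56.4 and 25.9 in subgroup 1 and 44.7 and 22.6 in subgroup 3, which overlapped. A value of 54.1 for Col25a1 in subgroup 7 of Ctrl replicate 1 came from 1 cell.

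Pou3f1 had another pattern. It was at 802 and 705 CPM in subgroup 6, where 92.1% and 82.6% of thinned Ctrl cells carried it, and at 132 and 136 in subgroup 1. Outside the follicle it was at 210.0 and 277 in differentiating-like cells and at 53.7 and 62.4 in basal-like cells of the Ctrl libraries. Subgroup 6 thus stood above all other cell groups for Pou3f1 in both Ctrl libraries.

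Within subgroups 1 and 6 the CPM of the genes was also lower in TKO. In subgroup 1, Zfpm2 was at 2.996 and 55.8 CPM in TKO replicates 1 and 2, from 3 and 95 UMIs in 38 and 58 cells. In subgroup 6 it had 0 UMIs in 16 cells of TKO replicate 1, and 9 UMIs, or 27.2 CPM, in 14 cells of TKO replicate 2. The TKO libraries were far apart, yet both lay below both Ctrl libraries in each of the subgroups. Other markers also differed within these subgroups. In subgroup 1 the summed peg markers were 3866 and 3781 CPM in Ctrl and 3042 and 2923 in TKO, while placode markers were 183 and 201 against 410 and 491, germ markers 857 and 785 against 1034 and 1164, and fibroblast markers 507 and 485 against 1037 and 902. In subgroup 6 the basal markers were 17612 and 19654 against 14886 and 9596. Their part in the lower levels was not tested.

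Adarb2 had 0 UMIs in the 54 and 72 cells of subgroups 1 and 6 of the TKO libraries, against 363 and 272 UMIs in 200 and 317 Ctrl cells. The Ctrl UMIs came from 28 and 35 cells. With the TKO libraries set at 3 UMIs each, the lower Ctrl library was at least 23.4-fold higher than either, and at least 17.4-fold higher in subgroup 1 alone, for counting error only. Col25a1 was at 139.9 and 42.0 CPM in subgroups 1 and 6 of Ctrl and at 15.6 and 11.3 in TKO. In subgroup 1 alone the Col25a1 values lay closer, at 56.4 and 25.9 in Ctrl and 22.0 and 11.2 in TKO. Pou3f1 was at 318 and 270.0 CPM in subgroups 1 and 6 of Ctrl and at 36.9 and 58.0 in TKO. In subgroup 1 alone it was at 132 and 136 against 26.96 and 47.6, and in subgroup 6 at 61.1 and 112 in TKO. Summed markers of differentiation (6 genes) moved with it in subgroup 6, at 1851 and 1467 CPM in Ctrl and 621 and 847 in TKO, and in all hair follicle-like cells, at 523 and 425 against 240 and 254. In subgroup 1 they overlapped, at 531 and 426 against 304 and 517. Their part in the Pou3f1 levels was not tested.

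Not every subgroup had lower values in TKO. In the cycling placode-like subgroup 4, Pou3f1 was at 2.65 and 6.40 CPM in Ctrl and at 34.7 and 29.5 in TKO. At 5000 UMIs per cell it was carried there by 2.63% and 3.23% of Ctrl cells and by 14.3% and 3.49% of TKO cells, so that TKO replicate 2 was close to the Ctrl libraries in this measure. Adarb2 was there at 0 in both Ctrl libraries and at 3.68 and 1.86 in TKO, from 14 and 6 UMIs. In the Shh subgroup 5, Zfpm2 was at 22.9 and 29.2 in Ctrl and at 29.8 and 3.09 in TKO, and the groups overlapped.

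Across genes tested in hair follicle-like cells with at least 10 CPM in subgroups 1 and 6 of Ctrl, 26.9% of 9328 had both TKO libraries below both Ctrl libraries there. Their median log2 ratio of TKO to Ctrl was 0.00459. The ratio of group means in subgroups 1 and 6 was -4.03 for Zfpm2, -2.76 for Col25a1 and -2.63 for Pou3f1 on the log2 scale. In subgroup 1 alone it was -4.04, -1.31 and -1.85, where 26.3% of 9342 genes did not overlap in that direction. The Zfpm2 ratio in subgroups 1 and 6 depended on the TKO library. It was -3.09 when TKO replicate 1 was left out and -7.68 when TKO replicate 2 was left out. The Col25a1 ratio moved to -1.64 when Ctrl replicate 1 was left out and to -3.38 when Ctrl replicate 2 was, and in subgroup 1 alone it lay between -1.88 and -0.65 with any 1 library left out.

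Cells of subgroups 1 and 6 with a high count of Zfpm2 were rare in TKO. At least 10 Zfpm2 UMIs were found in 65 of 200 and 69 of 317 Ctrl cells, in 0 of 54 cells of TKO replicate 1, which allows up to 5.56%, and in 3 of 72 cells of TKO replicate 2. Those 3 cells, all in subgroup 1, held 79 of the 104 Zfpm2 UMIs of that library's cells in both subgroups, and the highest of them held 39. For Pou3f1, 50 and 60 Ctrl cells reached 10 UMIs, against 0 and 3 TKO cells. For Adarb2 (12 and 9 Ctrl cells) and Col25a1 (16 and 6 Ctrl cells) no TKO cell reached it.

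**Figure D3:**
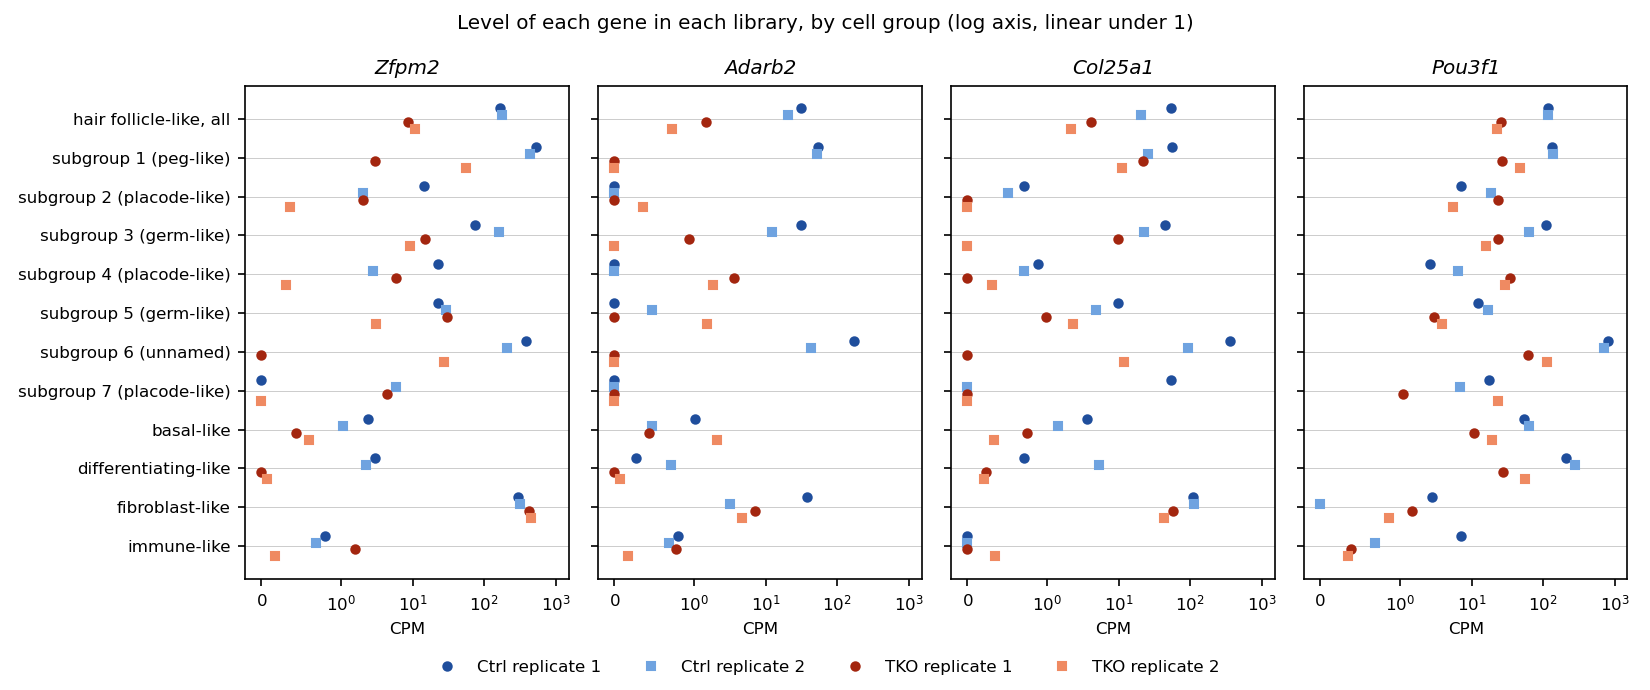
CPM of each gene (x axis, log scale, linear under 1) in the summed cells of each group (y axis), 1 point per library. Among the subgroups of Ctrl, Zfpm2, Adarb2 and Col25a1 have their highest means in subgroups 1, 3 and 6, and both TKO libraries lie lower there. Fibroblast-like cells of Ctrl also carry Zfpm2 (296 and 318 CPM) and Col25a1 (109.6 and 112), and in TKO Zfpm2 is not lower there while Col25a1 is lower in both libraries (56.9 and 43.6).

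To separate the sizes of subgroups from the levels within them, the difference of the group means was split into a part from sizes and a part from levels, each weighted by the average of the groups, with the size of a subgroup taken as its share of the UMIs of hair follicle-like cells. With Ctrl levels in every subgroup and TKO subgroup sizes, Zfpm2 would have stood at 98.1 CPM, against 172 from Ctrl levels and sizes and 9.28 from TKO levels and sizes. With TKO levels and Ctrl sizes it would have stood at 13.6. Smaller subgroups thus made up 24.1% of the Zfpm2 difference (18.8 to 27.6% over the 4 pairs of libraries) and lower levels within subgroups 75.9%.

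The part in sizes was 23.0% for Adarb2 (pairs 19.9 to 28.2%), 27.2% for Col25a1 (22.7 to 41.1%) and 30.6% for Pou3f1 (26.7 to 35.4%). This split rests on the clustering. It counts a different mix of cells inside a subgroup, such as the marker differences given above for subgroup 1, as a difference in levels. In Ctrl the unnamed subgroup 6 held 927 of 1748 and 907 of 1752 Pou3f1 UMIs of hair follicle-like cells. For Col25a1 it held 414 of 785 and 121 of 309, for Adarb2 199 of 467 and 55 of 310, and for Zfpm2 437 of 2429 and 266 of 2622. A split without subgroup 6 is not given. Over 9 other settings the part in sizes was between 12.7 and 44.7% for Zfpm2, 5.14 and 41.6% for Adarb2, 0.952 and 55.3% for Col25a1, and -19.1 and 42.0% for Pou3f1, where a negative value means that sizes alone would have raised it. The lowest values came from keeping doublets, except the -19.1% of Pou3f1, which together with the highest values of Zfpm2, Adarb2 and Col25a1 came from components not aligned across libraries. It stayed under 50% in all 9 settings for Zfpm2, Adarb2 and Pou3f1 and in 8 of 9 for Col25a1. The TKO share of cells in subgroups that scored as peg was lower by 19.5 percentage points, by 12.6 with subgroup 6 left out, by 13.3 to 34.7 over 8 other settings and by 16.0 to 22.9 without 1 library.

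**Figure D4:**
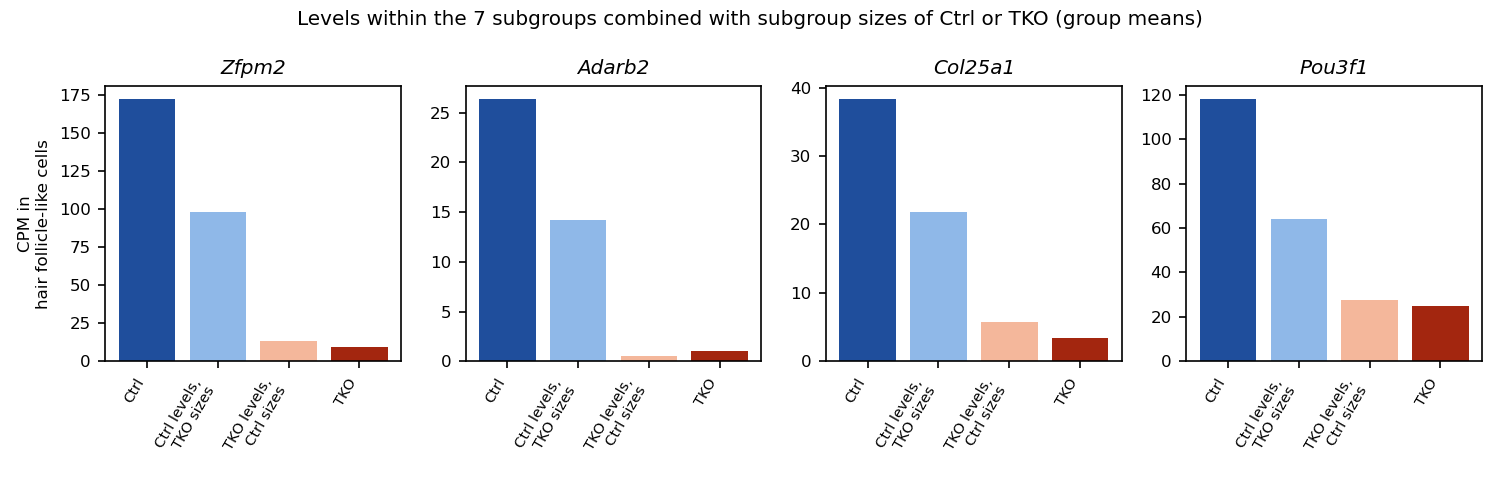
CPM of each gene (y axis, starting at 0) in hair follicle-like cells, from group mean levels within the 7 subgroups combined with the group mean sizes of Ctrl or TKO (n = 2 libraries each). The bar with Ctrl levels and TKO sizes stays above the bar with TKO levels and Ctrl sizes for all 4 genes.

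A count of cells by markers, with no clustering, was also lower in TKO. Keratinocytes with UMIs of at least 3 of the 6 peg markers (Pthlh, Tafa1, Krt79, Sox9, Lrig1, Krt17) at 5000 UMIs were 9.89% and 14.6% of Ctrl and 5.56% and 6.55% of TKO keratinocytes (exact permutation p = 0.3333, n = 2 each). Among them Zfpm2 was carried by 34.8% and 32.3% of cells in Ctrl and by 2.30% and 6.84% in TKO. Adarb2 was carried by 7.17% and 6.28% in Ctrl and by 0 of 87 and 0 of 117 cells in TKO. Col25a1 was carried by 15.4% and 6.51% against 3.45% and 2.56%, and Pou3f1 by 36.6% and 34.0% against 10.3% and 20.5%. This count was chosen after the data had been seen. All of these markers but Krt17 had a lower mean within subgroups 1 and 6 of TKO, by log2 ratios of -4.19 (Tafa1) to -0.71 (Lrig1), so that fewer such cells and lower marker levels cannot be told apart in it.

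The recombination was described as mosaic, so TKO cells were also split by UMIs of 8 genes that are near 0 in Ctrl and raised in TKO (Npffr1, Gm11884, Svop, D7Ertd128e, 1700030N03Rik, Gm42653, Gria3 and Col28a1). At 5000 UMIs, 70.9% and 54.9% of the TKO hair follicle-like cells carried at least 1 of them, against 2.31% and 1.79% in Ctrl. The 8 genes were picked from these libraries. In TKO cells that carried them, Zfpm2 was at 9.69 and 8.47 CPM and was found in 3.52% and 3.39% of cells. In TKO cells without them it was at 10.8 and 34.0 and was found in 4.30% and 3.61%. Both kinds of TKO cell therefore lay below the thinned Ctrl cells without these genes, at 202 and 201. A cell without such a UMI at this depth need not be unchanged.

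The same held for Pou3f1, at 26.4 and 16.1 CPM in TKO hair follicle-like cells with the 8 genes and at 34.4 and 24.7 in those without, against 143 and 146 in Ctrl cells without them. Within subgroups 1 and 6 of TKO replicate 2, the 31 cells without the 8 genes held 31 of the 35 thinned Zfpm2 UMIs, in 5 cells, and the 41 cells with them held 4, in 2 cells. The exact 95% intervals of these shares of cells overlapped (5.45 to 33.7% and 0.596 to 16.53%). In TKO replicate 1 neither kind of cell there held any.

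Outside the follicle the 4 genes parted. Basal-like cells had little of Zfpm2, Adarb2 and Col25a1, at 0.336 to 3.63 CPM in every library, and under 1% of thinned cells carried each. At these low levels Zfpm2 was at 2.36 and 1.08 CPM in Ctrl and at 0.437 and 0.597 in TKO, and Col25a1 at 3.63 and 1.42 against 0.750 and 0.336. In immune-like cells, as background, Zfpm2 was at 0.172 to 1.56 and Col25a1 at 0 to 0.344. The groups of Adarb2 overlapped in basal-like cells, at 1.05 and 0.474 in Ctrl and 0.437 and 2.09 in TKO. Differentiating-like cells held 67 and 28 UMIs of Zfpm2 in the Ctrl libraries and 0 and 1 in TKO. Col25a1 had 16 and 68 UMIs there in Ctrl, the 68 from 5 cells, and 2 and 3 in TKO, and it was carried by 0.732% and 0.873% of Ctrl and 0.873% and 0.704% of TKO cells at full depth, which overlapped. Adarb2, with 15 Ctrl UMIs and 1 TKO UMI, was too rare there for a lower level to be detectable, since 3 UMIs in TKO replicate 1 would be 0.362 CPM, above the 0.268 of Ctrl replicate 1. Pou3f1, in contrast, had a high level in the rest of the epidermis. In basal-like cells it stood at 53.7 and 62.4 CPM in Ctrl and 10.97 and 19.3 in TKO, and it was carried by 14.4% and 18.3% of thinned Ctrl cells and 4.71% and 7.68% of TKO cells.

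In differentiating-like cells Pou3f1 stood at 210.0 and 277 in Ctrl and 27.9 and 56.0 in TKO, and it was carried by 55.4% and 61.0% against 10.04% and 20% of thinned cells. The ratio of group means was 3.84 in basal-like, 5.80 in differentiating-like and 4.88 in hair follicle-like cells. The lower level of Pou3f1 was thus not limited to the follicle in these libraries. Summed markers of differentiation (6 genes) in differentiating-like cells were 51989 and 44311 CPM in Ctrl and 24628 and 37268 in TKO. In basal-like cells these markers were 1109 and 853 CPM in Ctrl and 407 and 686 in TKO. Their part in the Pou3f1 levels of both cell groups was not tested either.

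Fibroblast-like cells, in which the K14 promoter is not known to be active, expressed Zfpm2 at 296 and 318 CPM in Ctrl and 422 and 455 in TKO, so it was not lower there. Col25a1 in fibroblast-like cells was lower in both TKO libraries, at 56.9 and 43.6 against 109.6 and 112 in Ctrl. Fibroblast markers (6 genes) summed to 1537 to 1883 CPM in hair follicle-like cells, against 31900 to 41974 in fibroblast-like cells. All 6 were detected in each library. In subgroups 1 and 6 of Ctrl, where Zfpm2 was highest among the subgroups, the summed fibroblast markers were 507 and 485, and 152 and 309, below the 1181 to 3239 of every other Ctrl subgroup except 893 in subgroup 3 of Ctrl replicate 2. Merkel-like cells of Ctrl, the touch receptor cells of the epidermis, carried Col25a1 at 197 and 168 CPM. The TKO cells given that label held their markers at 33.1 and 129 against 18740 and 22060 in Ctrl and are not compared.

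Over 21 cell groups of the Ctrl libraries, the patterns of Zfpm2, Adarb2 and Col25a1 were alike, with Pearson's r of 0.880 (Zfpm2 and Adarb2), 0.899 (Zfpm2 and Col25a1) and 0.864 (Adarb2 and Col25a1) on log2(CPM + 1). Pou3f1 had r of 0.00344 to 0.255 with them. The groups share libraries and depth, so these values are descriptions. Of hair follicle-like cells at 5000 UMIs, 15.8% and 13.9% carried at least 2 of the 4 genes in Ctrl and 1.25% and 1.16% did in TKO. A lower TKO share follows from the choice of the genes. No share expected from the single genes was worked out, so these values do not show whether the genes occur together.

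The 5 genes closest to each of the 4 in Ctrl were then read in TKO. Apart from the 4 genes themselves this gave 14 genes, chosen on Ctrl cells alone. In hair follicle-like cells 10 of the 14 were called lowered and 0 raised, where 6.12% of all genes tested were lowered. All 14 had a log2 change under 0, with a median of -1.76 beside -0.00584 for all genes tested. All genes tested are not a matched background for these values. The 14 were drawn from 10809 genes with at least 20 CPM in a Ctrl cell group. Genes under that level in every Ctrl group could not enter, even if raised in TKO. No share of lowered genes was worked out for the 10809, so an excess of lowered genes was not tested. The list depended on the pseudocount. With a pseudocount of 10 it held 13 genes, 7 of them shared, and the 7 that left it included the 4 that were not called. Of those 13, 12 were called lowered and 0 raised. Since these genes mark cells whose share was smaller in TKO, fewer such cells and less RNA per cell cannot be told apart in these sums.

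Plcl1, which encodes a phospholipase C-like protein, was close to both Zfpm2 (r = 0.947) and Adarb2. It stood at 341 and 468 CPM in Ctrl and 37.4 and 79.7 in TKO libraries, and its log2 change was -2.72 (SE 0.340, adjusted p = 0.00421 by edgeR). Penk, the gene of the enkephalin precursor, was closest to Col25a1 (r = 0.916) and stood at 245 and 319.7 against 93.9 and 83.4 (log2 change -1.61 ± 0.140, edgeR adjusted p = 0.00117). Creb5, a bZIP transcription factor, stood at 376 and 447 against 62.8 and 75.9 (log2 change -2.51 ± 0.144, edgeR adjusted p = 0.000467).

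The other lowered genes had lower levels. Rgs17, a regulator of G-protein signalling, changed by -3.07 on the log2 scale, the lysophosphatidic acid receptor gene Lpar3 by -2.64, Tnfrsf11b (osteoprotegerin) by -2.28 and the glutamate receptor gene Grm8 by -1.73. Near Pou3f1 in pattern, Gm2164, which overlaps an exon of Pou3f1 on the opposite strand and is thus uncertain, changed by -2.94, Halr1 by -1.49 and Tns4, which encodes a focal adhesion protein, by -1.46. Cds1 (-0.23), Eppk1 (-0.42), Ptchd4 (-0.23) and 4930578G10Rik (-1.80) were not called, with edgeR adjusted p of 0.213, 0.204, 0.780 and 0.0507. The Halr1 call was lost without Ctrl replicate 2 (log2 -1.44, edgeR adjusted p = 0.0849). It was also lost with doublets kept (-1.49, edgeR adjusted p = 0.0648). At 5000 UMIs per cell the calls of Grm8 (-1.18), Tnfrsf11b (-2.05) and Tns4 (-1.54) were lost, with edgeR adjusted p of 0.0852, 0.0571 and 0.0949. Ptchd4 depended on the library. It was called lowered without TKO replicate 1 (log2 -1.33, edgeR adjusted p = 0.0168), and with uncorrected components (-1.19, edgeR adjusted p = 0.0477). For 4930578G10Rik, near the threshold, 7 of 12 alternatives gave a call, with edgeR or DESeq2 adjusted p of 0.00359 to 0.0417, and 5 did not, with 0.0544 to 0.214.

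**Figure D5:**
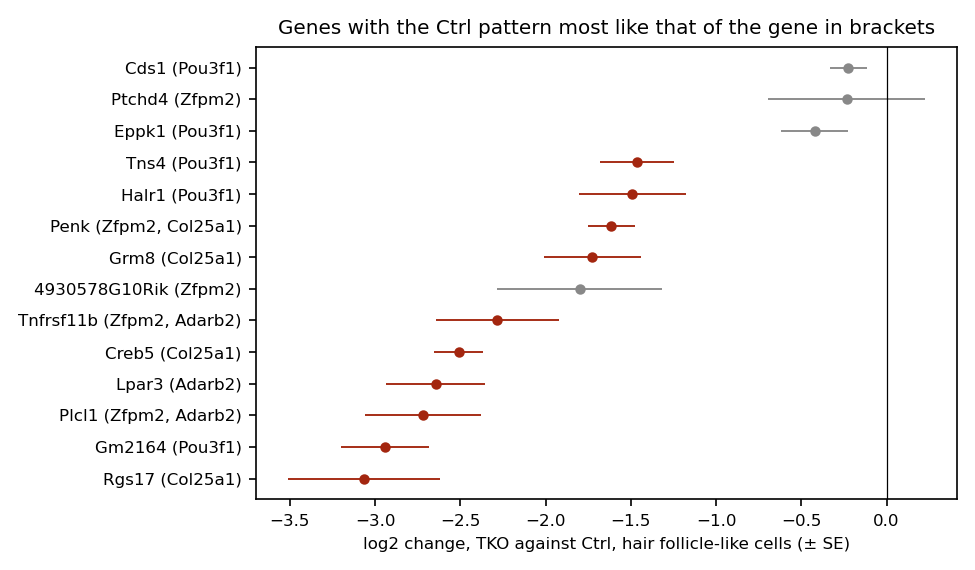
Log2 change of TKO against Ctrl in hair follicle-like cells (x axis, ± SE worked out from edgeR's F statistic, n = 2 libraries per group). Shown are the 14 genes whose Ctrl pattern was closest to 1 of the 4 genes, named in brackets. Red points were called at adjusted p under 0.05 and grey points were not, and all lie below 0.

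Inside subgroups 1 and 6 these 14 genes had a median log2 ratio of group means of -1.45, from -3.32 for Rgs17 to -0.22 for Cds1, and 11 of 14 had both TKO libraries below both Ctrl libraries (26.9% of the 9328 genes with at least 10 CPM there, while 2 of the 14, Rgs17 and 4930578G10Rik, were under 10 CPM). In subgroup 1 alone their median was -1.59, and 11 of 14 did not overlap in that direction, beside 26.3% of all genes. Peg markers were not lower to one degree. Tafa1 was at 248 and 349.5 CPM in subgroups 1 and 6 of Ctrl and at 18.4 and 14.3 in TKO, and Pthlh at 283 and 365 against 65.2 and 84.1. Krt17 was at 1615 and 1522 against 1868 and 1872, and Krt79 at 198 and 144 against 16.3 and 149.

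The relatives and partners of the 4 genes were read next, with 21 genes listed and 10 tested in hair follicle-like cells. Of these, 3 were lowered and 1 raised, where 6.12% of all genes tested were lowered and 7.96% raised. Gata3, a GATA factor of the inner root sheath and epidermis, stood at 131 and 166 CPM in Ctrl and 91.4 and 61.4 in TKO (log2 change -0.91 ± 0.187, edgeR adjusted p = 0.0220). That call was lost without Ctrl replicate 2 (log2 -0.76, edgeR adjusted p = 0.0959). Pou2f3, a POU factor of suprabasal keratinocytes, changed by -0.83 and Col17a1, the transmembrane collagen of hemidesmosomes, by -0.61. Nr2f2, an orphan nuclear receptor, rose by 1.03. The Col17a1 call was lost with components not aligned across libraries (-0.34, edgeR adjusted p = 0.0809). The Nr2f2 call was lost with cells of at least 3000 genes (0.74, edgeR adjusted p = 0.0531) and at 5000 UMIs per cell (1.09, edgeR adjusted p = 0.0721). Pou2f1 (0.32) and the RNA editing gene Adar (0.26) were not called, with edgeR adjusted p = 0.102 and 0.291. In basal-like cells 0 of 9 tested relatives were called, where 12.2% of 17634 genes were. The other 4 genes tested in hair follicle-like cells were not called either, and 11 of the 21 listed genes were under the expression filter there.

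The gene lists of follicle stages had different counts, each read beside the 6.12% lowered and 7.96% raised over all genes tested in hair follicle-like cells. Of 11 tested peg and upper follicle genes 7 were lowered and 0 raised, with a median log2 change of -1.67. The lowered genes with the largest changes were Tafa1 (-2.48), Pthlh (-2.34), Sox9 (-1.74) and Prdm1 (-1.67), while Nfib (-0.23) and Krt17 (0.09) were not called. Several of these lists' genes also served to name the subgroups. Of 12 tested placode genes 5 were raised and 0 lowered, with a median of 0.38. The Wnt target Sp5 rose by 1.78, the Wnt inhibitor Dkk4 by 1.26, Nkd1 by 0.88 and Wnt10a by 0.56. The calls of Dkk4 (0.72) and Nkd1 (0.25) were lost with components not aligned across libraries (edgeR adjusted p = 0.18 and 0.461). Cdh3 (0.0043) and Edar (0.38) were not called.

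Of 10 germ and matrix genes 1 was lowered (Wif1, -0.63) and 1 raised (Wnt10b, 0.38), and Lef1 (0.39) was not called. Of 12 Hedgehog pathway genes 3 were lowered, the inhibitor Hhip (-1.83) and the co-receptor genes Gas1 (-1.15) and Boc (-0.56), while Ptch1 (-0.32) was not called. In basal-like cells 1 of 10 tested peg genes was lowered and 0 raised, where 7.89% of all genes were raised and 4.33% lowered. Of 12 placode genes 1 was raised there (Sp5, 3.19) and 3 were lowered (Edaradd, -0.64, Edar, -0.46, and Wnt10b, -0.45). Of 11 Hedgehog pathway genes 3 were lowered (Gli1, -0.96, Gas1, -0.68, and Smo, -0.41) and 0 raised. Wnt10b was the germ and matrix gene called of 10, and these basal-like genes were named after their values were seen. In hair follicle-like cells the calls of Boc, Wif1, Wnt10a and Wnt10b were lost under 5, 4, 8 and 11 of 13 alternatives. Without Ctrl replicate 1, all 4 missed the threshold, at log2 changes of -0.61, -0.46, 0.48 and 0.45 (edgeR adjusted p = 0.0583, 0.101, 0.141 and 0.0915). Without Ctrl replicate 2 the values of Boc, Wnt10a and Wnt10b were -0.53, 0.63 and 0.30, and without TKO replicate 1 they were -0.46, 0.45 and 0.35, none of them called. Without TKO replicate 2 Wnt10b was at 0.41 and not called, whereas Ptch1 (-0.69) and Lef1 (0.52) were called, as was Edar (0.64) without TKO replicate 1.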

How the data were processed

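Libraries were made with the 10x Genomics 3′ v3 kit. The authors deposited unnormalized UMI counts of genes in called cells, 1 matrix a library, mapped to GRCm39. Per the file headers Cell Ranger 7.1.0 made them, whereas the methods name another version. The annotation release was not given in the sources used here. The authors removed contaminating cells by markers, aligned libraries with Harmony and tested single cells in Seurat.

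Cells with at least 2000 genes and under 10% mitochondrial UMIs were kept. Doublets were scored with Scrublet in scanpy 1.11.5, whose automatic threshold marked 1, 2, 27 and 31 cells, so the cells with the highest scores were left out instead, at a rate of 0.8% per 1000 barcodes (144, 157, 66 and 90 cells). Library pairs shared 2 to 12 barcodes. Counts were scaled to 10000 per cell. Cells were clustered by Leiden (leidenalg 0.10.2) on 2000 variable genes, 30 components aligned by an own implementation of Harmony (theta 2, sigma 0.1, lambda 1, at most 100 clusters) and 20 neighbours, at resolution 1. The number of Harmony clusters was set by the number of cells and was under 100 for hair follicle-like cells. Clusters were named from marker lists with the suffix "-like". Keratinocytes were clustered again at resolution 1 without 1372 genes that differed between genotypes, and hair follicle-like cells at resolution 0.5 without 2717.

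For each library and class the UMIs of its cells were added up, and these totals were tested with edgeR 4.0.16 (R 4.3.3; quasi-likelihood test, TMM, default filter, genotype only, adjusted p under 0.05). The SE of a log2 change is its absolute value divided by the square root of the F statistic of this test. The scripts were tested on simulated counts with planted changes. Shares were compared by exact permutation tests over libraries (SciPy 1.17.1), whose smallest p is 0.3333. Intervals are exact binomial at 95%, and a share or level of 0 was set against 3 counts. The Ctrl pattern used cell groups with at least 20 cells in each Ctrl library, genes with at least 20 CPM in 1 group, and a pseudocount of 1.

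The 4 genes and all gene lists were chosen with earlier results of these data known. Named genes were the 4 genes, the 5 nearest to each in Ctrl, up to 4 called genes per list and direction by size of change, up to 4 of a list not called by Ctrl level (at most 2 were named), and the 5 leading genes of each subgroup. Of the listed placode genes, Ctgf was not matched by that symbol, and 1 listed gene is not reported here. Alternatives covered doublets, cell filter, alignment, genes used for clustering, subgroup resolution, Ctrl-anchored subgroups, depth, DESeq2 1.42.0, the expression filter, the pseudocount, a replicate block and each library left out.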

Additional observations from a re-analysis of the deposited data

How the results depend on the processing

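The log2 ratio of means kept its sign for all 4 genes under every alternative run, and it moved by more than the spread between libraries in some. For Zfpm2 it was -3.81 with doublets kept, -4.62 with uncorrected components and -3.73 at 5000 UMIs per cell, beside -4.11. For Adarb2 it was -5.47 at 5000 UMIs, beside -4.57. For Pou3f1 it was -2.59 with doublets kept, -2.90 with cells of at least 3000 genes, -2.57 with uncorrected components and -2.54 at 5000 UMIs, beside -2.29.

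The difference in the share of cells in subgroups scoring as peg was -19.5 percentage points, and it was -12.6 with subgroup 6 left out, chosen after seeing the data, -13.3 with doublets kept, -34.7 with uncorrected components and -24.6 with Ctrl-anchored subgroups. The germ-like share changed sign to -9.08 with uncorrected components and to -0.69 at double the resolution, and ran from -1.40 to 6.84 without 1 library. The placode-like share changed sign to -8.71 with uncorrected components. With those components 76.5% and 29.3% of the TKO and 0.653% and 0.252% of the Ctrl hair follicle-like cells fell in subgroups that scored as none of the 3, and at double the resolution 14.7% and 9.24% against 5.56% and 3.504% did, so these values are not of the same populations.

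The part of the difference in subgroup sizes, in percent, was for Zfpm2, Adarb2, Col25a1 and Pou3f1 in turn 12.7, 5.14, 0.952 and -2.49 with doublets kept, 44.7, 41.6, 55.3 and -19.1 with uncorrected components, and 34.4, 31.5, 37.3 and 42.0 with Ctrl-anchored subgroups. Keeping the genes called in hair follicle-like cells in the clustering, an alternative chosen after seeing the data, gave 33.1 for Zfpm2, 29.9 for Adarb2 and 38.4 for Pou3f1. Keeping all changed genes gave 33.0 for Zfpm2 and 25.1 for Pou3f1, and double the resolution gave 27.7 for Zfpm2.

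In hair follicle-like cells 2253 genes were called, against 1427 with doublets kept, 1348 with cells of at least 3000 genes, 876 at 5000 UMIs per cell and 722 to 2468 without 1 library. In basal-like cells 2156 were called, against 3692 without a filter, 1183 at 5000 UMIs and 904 to 2918 without 1 library. Fewer genes could be tested at 5000 UMIs, and the cause of the other moves was not tested.

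The replicate numbers are only names, as the embryos differ. With the replicate block 1601 and 1646 genes were called in the 2 classes. Same-numbered libraries had a correlation of deviations of -0.114, and the crossed pairing, chosen after seeing the data, called 2783 and 3331. Among 39 named genes, 440 of 504 values under alternatives kept sign and side of the threshold, 39 missed it, 14 passed it and 11 changed sign. The sign changes were in genes that were not called. Cdh3 was at -0.16 with uncorrected components, -0.042 with changed genes kept, -0.0029 with DESeq2, -0.022 without a filter, -0.073 at 5000 UMIs and -0.099 to 0.097 without 1 library. With uncorrected components Edar was at -0.15 and Krt17 at -0.24. Without 1 library Krt17 ran from -0.028 to 0.19 and Ptchd4 from -1.33 to 0.40. No sample could be tested as an outlier with 2 libraries per group.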
